A study of Homo sapiens with 2 samples.

Results

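RUNX1 peaks were examined at 10 genes whose products act as feedback brakes on the MAP kinase pathway, out of 20037 protein-coding genes. The 10 were taken by name, with earlier results of these data known: DUSP1, DUSP4, DUSP5, DUSP6, DUSP10, SPRY1, SPRY2, SPRY4, SPRED1 and SPRED2. Peaks were counted for a gene if the summit, the position with the most tags, fell in its RefSeq interval or at most 50 kb beyond either end. This placed 24 of the 13591 peaks of the whole list at 8 of the 10 genes. By the same rule 52.1% of all protein-coding genes had at least 1 summit. SPRY1 and SPRY2 had 0.

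RUNX1, which binds DNA together with CBFB, was measured by ChIPseq with 1 anti-RUNX1 library and 1 input DNA library. The cells were derived from MCF10A, a line of human breast epithelial cells that does not form tumours. They had their own RUNX1 deleted, which the study reports to transform MCF10A cells in culture and in mice. They also carried an integrated lentiviral RUNX1 gene that doxycycline switches on. Both libraries came from these cells after 24 h with 1 µg/ml doxycycline, so the protein came from the vector and not from its natural locus. Per the study's methods, this line was turned to after a ChIPseq of the cells' own RUNX1 gave no strong signal, with a low RUNX1 level and a weak antibody as the possibilities to be tested. No library of the cells' own RUNX1 or without doxycycline was analysed here. After removal of duplicates, 80338845 ChIP tags and 87410774 input tags were kept. There was 1 library of each kind and hence no replicate, so nothing was tested between samples. The study's RNAseq, from other MCF10A lines, was not analysed here, so these cells were not checked against marker genes. The intervals given are exact 95% Poisson intervals and cover counting error only.

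Growth factor receptors signal through RAS and a chain of kinases, RAF, MEK and ERK, and MCF10A cells are grown with EGF, which switches this chain on. DUSP proteins of this group are MAP kinase phosphatases, which remove the activating phosphates from ERK, JNK or p38. Sprouty (SPRY) and SPRED proteins act higher up, between the receptor and RAF. Many of these genes are themselves switched on by ERK, and their products thereby close a feedback loop.

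Of 13 promoter windows, those of 8 of the genes, 1 overlapped a peak, that of DUSP1, and it is shown because binding data and promoter sequence meet there. The window runs from 250 bases before the start site to 50 after it, chr5:172771146-172771445 in GRCh38.p14, minus strand, read 5′ to 3′ from RefSeq. Capitals mark the 34 bases under the peak, all of them past the start site.

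DUSP1 promoter: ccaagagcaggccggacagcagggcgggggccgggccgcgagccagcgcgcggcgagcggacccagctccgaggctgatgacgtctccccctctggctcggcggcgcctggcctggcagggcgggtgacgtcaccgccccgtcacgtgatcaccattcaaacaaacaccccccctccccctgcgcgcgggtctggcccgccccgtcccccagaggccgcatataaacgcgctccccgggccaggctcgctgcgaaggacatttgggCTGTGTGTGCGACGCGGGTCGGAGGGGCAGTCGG

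The peak spanned 172771106 to 172771179 on chromosome 5, and its remaining 40 bases lay further into the gene. Its summit was 41 bases past the start site. The core letters of a RUNX site, TGTGGT or ACCACA on the other strand, were not in the window, and neither were the shorter TGTGG or CCACA that these contain. Of all 35116 RefSeq promoter windows of this length, 13.1% held the longer form and 51.4% the shorter. Of the 13 windows the longer form occurred in 1, at the inner start site of SPRED2, and the shorter form in 3. Other motifs were chosen after the DUSP1 sequence was seen and searched on both strands. The letters TGACGTCA, the form bound by CREB and ATF factors, began 125 bases before the start site and were held by 1.85% of all windows. An E-box, CACGTG, began 108 bases before it and was held by 7.26%. The run TATAAA, the TATA box core, began 30 bases before it and was held by 11.5%. A match is only a run of letters, not a measured site.

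The 24 peaks had a median pileup, which counts the extended ChIP tags covering a summit, of 21 tags, the lowest being 12 and the highest 37. The median of the whole list was 18 tags, and 20 of the 24 were above it. Fold enrichment, the ratio of the pileup to the local input level with 1 added to each, had a median of 5.30 and ran from 3.42 to 8.13, against 5.06 in the whole list. Peaks were 74 to 314 bp long, and the median of 171 bp compares with 153 bp in the whole list. The −log10 q ran from 2.48 to 20.0 with a median of 7.74, against 5.90. The genes' peaks therefore sat somewhat above the middle of the list in each of these measures. Of the list, 502 peaks, or 3.69%, had a higher pileup than the tallest of the 24.

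Most of the peaks were not close to the genes. Inside a gene lay 5, another 3 lay within 5 kb of one, and 16 were 5 to 50 kb away, of which 13 were over 20 kb away. Of the 15 outside peaks of genes whose strand was used, 8 were upstream and 7 downstream. The genes with a summit inside were DUSP1, DUSP5, DUSP10 and SPRED2.

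**Figure D1:**
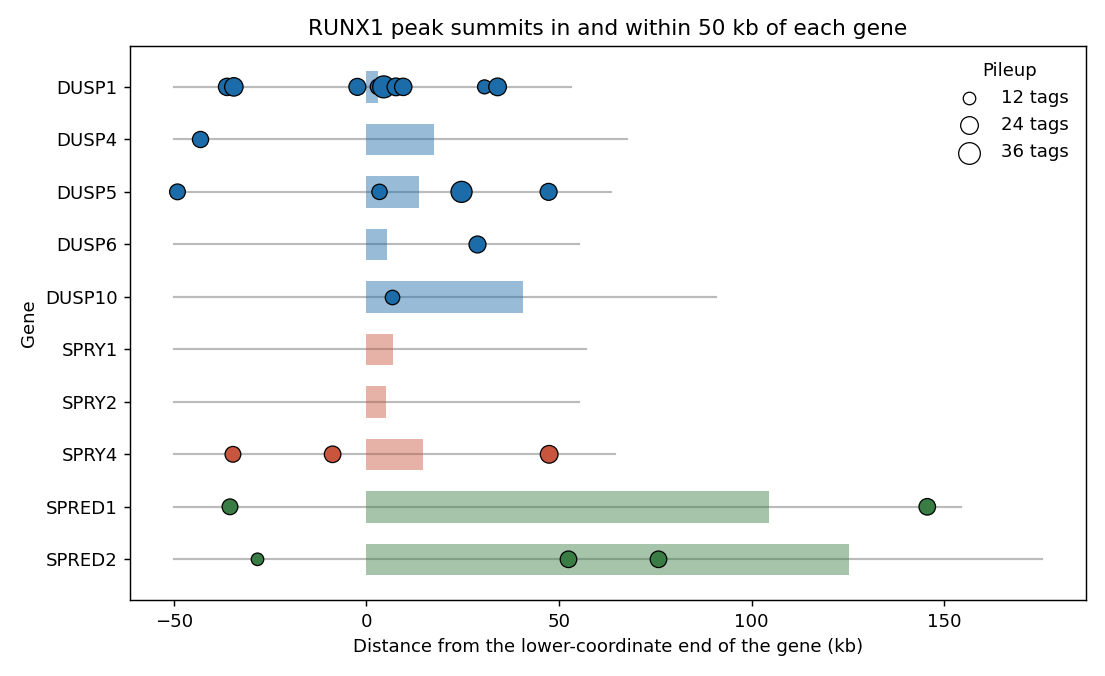
Summits of the 24 RUNX1 peaks (circles, area in proportion to the pileup in tags) along each gene. The x axis is the distance in kb from the gene's lower-coordinate end, bars are gene intervals (blue DUSP, red SPRY, green SPRED) and grey lines the windows of 50 kb on either side. DUSP1 had 9 summits, 5 of them within 11.9 kb around the gene, and SPRY1 and SPRY2 had 0.

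For comparison, 52.1% of all protein-coding genes had at least 1 summit by the same rule, and 8 of these 10 did. With 5 kb on either side it was 4 of 10 against 24.8%, and inside the gene 4 of 10 against 18.7%. At least 3 summits were found at 4 of 10 genes, DUSP1, DUSP5, SPRY4 and SPRED2, against 13.9%. The counts moved with the settings in both the group and the background. With peaks of at least 5-fold enrichment alone, 7 of 10 genes had one against 35.1%, and when a peak counted only for its nearest gene, 6 of 10 against 28.2%. In another setting, peaks whose input level, the local background under the peak, was over 1.3 times the genome background were left out. Then 5 of 10 genes had a peak against 44.2%, so that the group lay near the background. The genes lost were DUSP1, SPRY4 and DUSP10. Around them the lower quartile of the input level at other peaks within 1 Mb was 1.38, 1.44 and 1.36 times. The limit thus took out most peaks of those regions, and this count cannot tell the genes from their surroundings. That limit rests on few input tags: a level of 1.67 times is 3.68 tags, with 1 input tag counted as 0.919. It left out the 34-tag peak of DUSP5, where the median level at other peaks within 1 Mb was 1.05 times. No counting interval was given for the input level. A q limit of 0.01 gave 8 of 10 against 50.9%. Each gene is 10% of the group and the genes differ in length from 3.10 kb for DUSP1 to 125 kb for SPRED2, so these counts describe the 10 genes and were not tested. Per Mb of window the group had 18.0 peaks, compared with 5.64 per Mb over the windows of all protein-coding genes joined together. In the latter figure, overlapping windows were merged and counted once. Outside their windows, the surrounding 1 Mb on either side of the 10 genes held 2.63 to 15.3 peaks per Mb. Without DUSP1, which was left out after its values were seen, the remaining 9 genes had 15 peaks, or 12.2 per Mb.

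**Figure D2:**
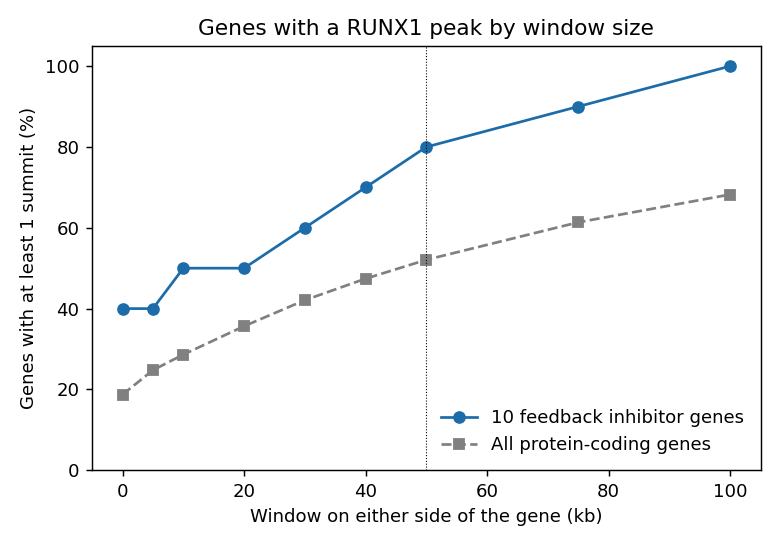
Percent of genes with at least 1 summit (y axis) by the window on either side of the gene in kb (x axis), for the 10 feedback inhibitor genes (blue circles) and all 20037 protein-coding genes (grey squares). The group rose from 40% with the gene alone to 80% at 50 kb (dotted line) and 100% at 100 kb, and all genes from 18.7% to 52.1% and 68.2%.

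DUSP1 had the most peaks of the 10 genes, all of them over a raised input level and in a region rich in peaks. This gene encodes MKP-1, a nuclear phosphatase of p38, JNK and ERK that is made within minutes of stimulation. It lies on chromosome 5 from 172768096 to 172771195 and had 9 peaks. At least 9 were found at 56 protein-coding genes, or 0.279%. The threshold was DUSP1's own count, so this share is a description and not a test. When peaks with an input level over 1.3 times the genome background were left out, DUSP1 had 0. That limit lay below the lower quartile of 1.38 times at the other peaks within 1 Mb. The surrounding 1 Mb on either side, without the window itself, held 29 peaks, or 15.3 per Mb, the most of the 10 genes, whose other values ran from 2.63 to 13.7 per Mb. In the gene and within 5 kb DUSP1 had 4, a number that 2.0% of protein-coding genes reached. That threshold was likewise DUSP1's own count.

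The tallest of its peaks was 1.40 kb upstream of the start, at 172772415 to 172772697, with 37 tags (26.1 to 51.0), an 8.13-fold enrichment, a −log10 q of 20.0 and a length of 283 bp. The peak just past the start site was smaller, with 19 tags (11.4 to 29.7), a 4.88-fold enrichment and a length of 74 bp, the shortest that the peak caller allows. Of the genes with start sites used here, 1 of 8, DUSP1, had a summit within 1 kb of a start site, against 4.87% of 15843 protein-coding genes.

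Further upstream of DUSP1 lay peaks of 24 tags (15.4 to 35.7) at 4.58 kb and 23 tags (14.6 to 34.5) at 6.47 kb, and downstream one of 22 tags (13.8 to 33.3) at 2.34 kb. Together with the tallest peak and the one just past the start site these made 5 summits in 11.9 kb. In the whole list, 65 summits, or 0.478%, began a stretch of this length with at least 5. Both the length and the number were set from these DUSP1 summits, so the share is a description and not a test. The 3 upstream summits nearest to the gene lay inside LOC105377730, a long non-coding RNA gene.

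The other 4 peaks of DUSP1 were distal. Those upstream had 15 tags (8.40 to 24.7) at 27.6 kb and 24 tags (15.4 to 35.7) at 31.0 kb, with fold enrichments of 3.42 and 3.84, the lowest of all 24. Those downstream had 26 tags (17.0 to 38.1) at 34.4 kb, where the peak was the longest of all 24 with 314 bp, and 23 tags (14.6 to 34.5) at 36.2 kb. For each of the 9 peaks DUSP1 was the nearest protein-coding gene. The counting interval of the tallest peak overlapped those of 7 of the other 8 and not that of the 15-tag peak.

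**Figure D3:**
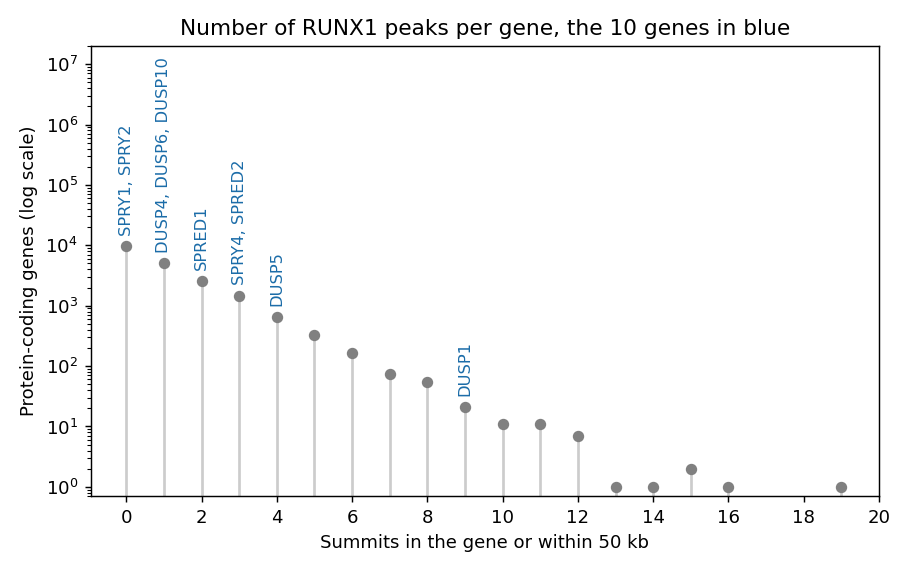
Number of protein-coding genes (y axis, log scale) with each number of summits in the gene or within 50 kb (x axis), with the 10 genes named in blue at their number. DUSP1, with 9, was among the 56 genes with at least 9, and the others had 0 to 4.

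The input level, the local background of the peak caller recovered from pileup and fold enrichment, was raised at DUSP1. It was 1.39 to 2.5 times the genome background of 2.20 tags at the 9 peaks, and its median was 1.45 times over 29 other peaks within 1 Mb. It was raised likewise around SPRY4 (1.58 times, 26 peaks), on the same chromosome arm, and around DUSP10 (1.46 times, 14 peaks). Around the other 7 genes the median was 1.00 to 1.25 times. The 3 genes in raised regions had 13 peaks, or 36.3 per Mb of window, and of the other 7 genes 5 had 11 peaks, or 11.2 per Mb. DUSP1 alone gave 9 of the 13, at 87.3 per Mb, while SPRY4 had 26.2 per Mb and DUSP10 7.11. Among the other 7 genes the values ran from 0 to 35.2 per Mb, the highest at DUSP5. Median fold enrichment, which takes the input into account, was 5.13 at the 3 genes in raised regions and 5.80 at the other 7. The part of the input level in the number of peaks was not tested.

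**Figure D4:**
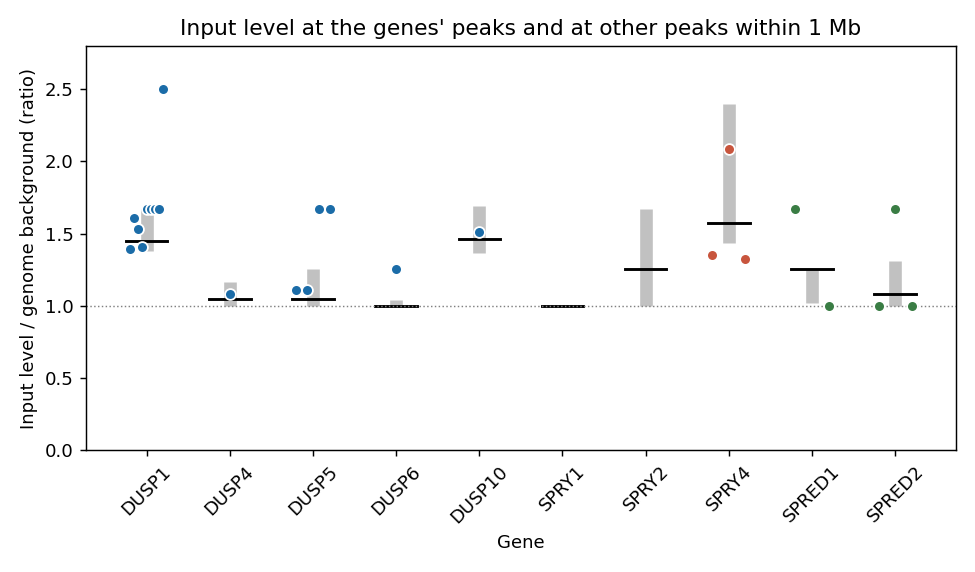
Input level divided by the genome background (y axis, ratio) at each gene's own peaks (points, coloured by family) and at the other peaks within 1 Mb (black line, median, and grey bar, lower to upper quartile). The regional medians of DUSP1, SPRY4 and DUSP10 lay at 1.45, 1.58 and 1.46, and those of the other 7 genes at 1.00 to 1.25.

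DUSP5, a nuclear phosphatase specific for ERK, had 4 peaks on chromosome 10 around its interval from 110497907 to 110511533. The tallest, at 110522506 to 110522775, was 11.1 kb past the higher-coordinate end and had 34 tags (23.5 to 47.5), a 7.48-fold enrichment, a −log10 q of 17.2 and a length of 270 bp. It was the only peak besides the tallest one of DUSP1 with over 30 tags. A peak of 81 bp inside the gene had 18 tags (10.7 to 28.4), equal to the median of the list. One at 33.7 kb had 22 tags (13.8 to 33.3) and was nearer to SMC3, a cohesin subunit gene 22.5 kb away, and one at 49.0 kb on the other side had 19 tags (11.4 to 29.7). This last peak lay just inside the 50 kb limit. The nearest summits just outside it were 58.8 kb from SPRY2, with 26 tags, and 59.2 kb from DUSP4, with 19 tags.

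The other phosphatase genes had 1 peak each. DUSP6 encodes MKP-3, the cytoplasmic phosphatase of ERK and a common readout of its activity. Its peak, at 89375851 to 89376103 on chromosome 12, was 23.5 kb upstream and had 22 tags (13.8 to 33.3), a 6.12-fold enrichment and a length of 253 bp. The summit lay inside POC1B-DUSP6, a read-through gene that joins DUSP6 to its neighbour POC1B. DUSP10, which acts mainly on JNK and p38, had a weak peak of 88 bp inside the gene at 221708170 to 221708257 on chromosome 1, with 16 tags (9.15 to 26.0) and a 3.92-fold enrichment. The peak of DUSP4, a nuclear phosphatase of ERK and JNK, was 43.2 kb from the gene, with 20 tags (12.2 to 30.9), a 6.21-fold enrichment and a length of 134 bp. It was nearer to KIF13B, a kinesin gene 26.5 kb away. The peaks of DUSP6 and DUSP10 were 23502 and 28703 bases from the nearest start site of their own gene. For DUSP4 no start site was used, so this distance was not measured.

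**Figure D5:**
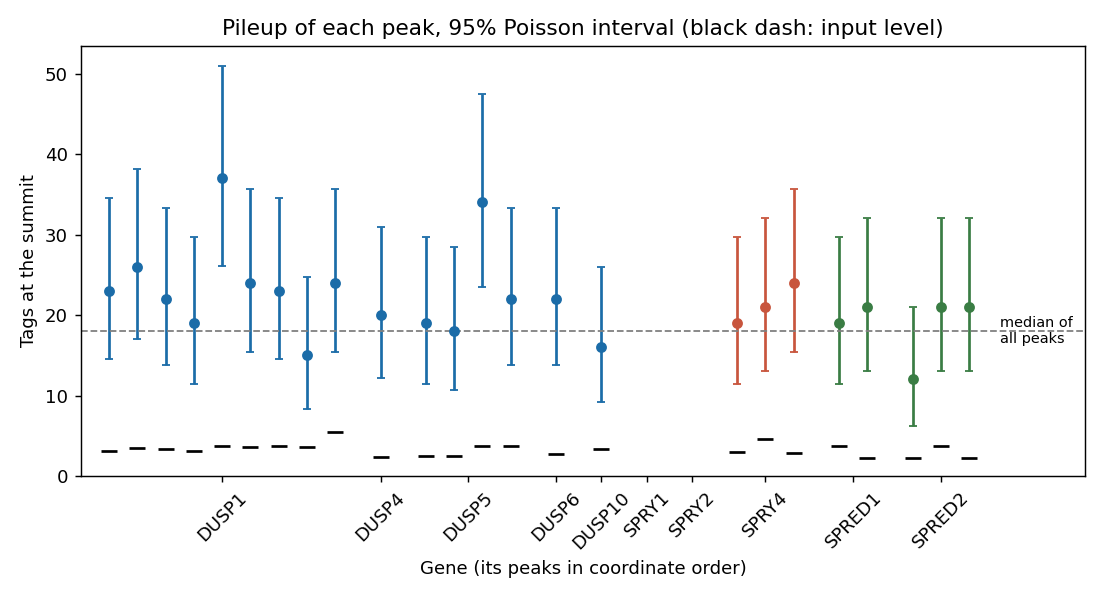
Pileup in tags at each summit (y axis, points, blue DUSP, red SPRY, green SPRED) with exact 95% Poisson intervals, peaks in coordinate order within each gene (x axis), and the input level in tags (black dashes). The dashed line is the median of all 13591 peaks, 18 tags, and the tallest were 37 tags at DUSP1 and 34 at DUSP5.

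The Sprouty genes, which encode membrane-linked inhibitors of receptor signalling to RAS and RAF, differed in their counts. SPRY4 had 3 peaks, all outside the gene, which spans 142310430 to 142325021 on chromosome 5. The peak at 142357819 to 142357997, 32.9 kb upstream and inside the non-coding gene SPRY4-AS1, had 24 tags (15.4 to 35.7) and a 6.39-fold enrichment. Downstream, a peak 8.77 kb from the gene had 21 tags (13.0 to 32.1) and a 3.93-fold enrichment over an input level 2.09 times the genome background, and one at 34.6 kb had 19 tags (11.4 to 29.7). SPRY4 was the nearest protein-coding gene to each of the 3. SPRY1 and SPRY2 had no summit within 50 kb, and their nearest ones were 75.2 kb away with 21 tags and 58.8 kb away with 26 tags. Within 1 Mb of these genes the list was also sparse, with 5 peaks around SPRY1 and 7 around SPRY2, compared with 10 to 29, besides their own, around the other 8 genes.

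Both SPRED genes, whose products bring neurofibromin, the NF1 protein, to the membrane to switch RAS off, had peaks. SPRED2 had 2 inside its interval from 65307175 to 65432599 on chromosome 2. They were at 65382910 to 65383085 and 65359600 to 65359712, each with 21 tags (13.0 to 32.1), and differed in fold enrichment, 6.87 against 4.70, because the input level was at the genome background under the first and 1.67 times it under the second. The latter was 7.13 kb from the inner start site whose window held TGTGGT. The third was the weakest of all 24, with 12 tags (6.20 to 21) and 74 bp, 28.3 kb downstream and only 7.66 kb from ACTR2, a subunit gene of the actin-nucleating Arp2/3 complex. Its interval did not overlap that of the tallest peaks of DUSP1 and DUSP5, a comparison of the lowest with the highest of the 24, picked by their values. SPRED1, at 38252836 to 38357249 on chromosome 15, had 0 summits inside its 104 kb. It had 1 peak 35.4 kb upstream, with 19 tags (11.4 to 29.7) and a 4.28-fold enrichment, and 1 peak 41.2 kb downstream, with 21 tags (13.0 to 32.1), a 6.87-fold enrichment and a length of 262 bp.

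By family, the 5 DUSP genes had 16 peaks with a median pileup of 22 tags and a median length of 213.5 bp, the 3 SPRY genes 3 peaks with medians of 21 tags and 142 bp, and the 2 SPRED genes 5 peaks with medians of 21 tags and 166 bp. The DUSP values include the 9 peaks of DUSP1, with medians of 23 tags and 208 bp.

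Other genes of the pathway were counted by the same rule in 4 lists. Of all 44, 22 had a peak, or 50%, close to the 52.1% of all protein-coding genes, and 5 had at least 3 peaks.

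The relatives of the 10 genes, DUSP2, DUSP7, DUSP8, DUSP9, DUSP16, SPRY3 and SPRED3, had no peak, 0 of 7 against 52.1% of all protein-coding genes. Having a peak was thus not shared across these families. The relatives are 2.27 kb (DUSP2) to 170 kb (SPRY3) long, and the difference from the 8 of 10 genes above was not tested.

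Of 10 genes listed as other brakes on RAS and ERK signalling, 7 had a peak and 1, SPSB1, had at least 3. SPSB1 is a SOCS-box protein gene, and its role as a brake was not checked here. The tallest peak was 41.7 kb from it, with 60 tags (45.8 to 77.2), but the input level there was 4.59 times the genome background and the fold enrichment 5.49. RASA2, which encodes a RAS GTPase-activating protein, had a peak of 31 tags (21.1 to 44) at 10.8 kb with an 8.52-fold enrichment, and NF1 had 2 inside, the taller with 20 tags (12.2 to 30.9). ERRFI1, RASA1 and PEBP1 had 0.

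Of 19 genes of the cascade itself, from adaptors to ERK and its RSK kinases, 12 had a peak and 3 had at least 3. KSR1, a scaffold for RAF, MEK and ERK, had 8, of which 7 were inside its 170 kb, and the tallest had 28 tags (18.6 to 40.5). MAP2K1, which encodes MEK1, had 3, all inside, the tallest with 25 tags (16.2 to 36.9). SHC1, a receptor adaptor, had 4, the tallest with 20 tags (12.2 to 30.9).

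Of 8 stress MAP kinase genes, 3 had a peak. MAPK8, which encodes JNK1, had 1 of 32 tags (21.9 to 45.2) at 28.9 kb. MAPK11, a p38 kinase gene, had 3, the tallest with 25 tags (16.2 to 36.9), and MAPK14, another p38 gene, had 1 of 13 tags (6.92 to 22.2). MAPK9, MAP2K3, MAP2K4, MAP2K6 and MAP2K7 had 0.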

How the data were processed

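The deposited list was made by the authors from 1 anti-RUNX1 and 1 input library of MCF10A cells. Per the submitters' processing notes, reads were aligned with Bowtie2 to hg38. Per the file headers, the authors called peaks with MACS 2.1.2 at a q limit of 0.05, with 54 bp tags extended to 74 bp and 1 tag kept per position and strand, which limits how high a pileup can rise. The deposited pileup is a signal in tags, the deposited fold enrichment is a ratio to the local input, and p and q were deposited as −log10 values.

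Here summits were assigned to GRCh38.p14 RefSeq intervals, and the input level was computed as (pileup + 1) / fold − 1. All 10 symbols and all 44 of the other lists matched. Start sites and strands came from the RefSeq promoter table, which was used for 8 of the genes, DUSP4 and DUSP5 not among them. Assignment was tested on simulated data with planted summits. Python 3.11.15, pandas 2.3.3 and scipy 1.17.1 were used.

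The members and lists were chosen with earlier results of these data known. Named are the 10 genes with all their peaks, and from each other list the 3 genes with the tallest peak and, where 5 or fewer, those without one. The list of relatives is named in full, chosen after its values were seen. Other settings were q of 0.01, fold enrichment of at least 5, the gene alone, 5 or 100 kb, any base of the peak, merging within 1 kb, an input limit of 1.3 times background, and peaks nearest to the gene alone. A comparison of protein sequences was planned and not run.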

Additional observations from a re-analysis of the deposited data

How the results depend on the processing

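With a q limit of 0.01, overlap of any base or merging within 1 kb, 8 genes and 24 peaks were counted as before, against 50.9%, 52.1% and 52.1% of all protein-coding genes with a peak. With the gene interval alone 4 genes, against 18.7% of all genes, and 5 peaks were left. With 5 kb on either side it was 4 genes, against 24.8%, and 8 peaks. With the gene alone the highest pileup was 21 tags and the median length 88 bp. With a fold enrichment of at least 5, 7 genes, against 35.1% of all genes, and 15 peaks were left. Leaving out peaks with an input level over 1.3 times background left 5 genes, against 44.2% of all genes, 7 peaks and a highest pileup of 22 tags, and removed every peak of DUSP1, SPRY4 and DUSP10. When only peaks nearest to the gene counted, 6 genes, against 28.2% of all genes, and 20 peaks were left. DUSP4 and DUSP6 fell to 0, DUSP5 from 4 to 3 and SPRED2 from 3 to 2. The DUSP6 summit did not count because it lay inside POC1B-DUSP6, the read-through gene that joins DUSP6 to POC1B. Settings chosen after seeing the data were leaving out DUSP1 (7 genes, 15 peaks) and the 3 genes in regions of raised input (5 of 7 genes, 11 peaks). Of the 44 other pathway genes, 22 had a peak, against 52.1% of all genes. At a fold enrichment of 5 or more it was 10, against 35.1%, and with the gene alone 10, against 18.7%. With 5 kb it was 10, against 24.8%, and with 100 kb 34, against 68.2%. Of 50 settings for the results over the members, 33 were labelled the same and 17 moved, 16 of them to lower values. Of 90 settings for the single genes' counts, 64 stayed within 1.5 times or at 0. The other 26 moved, 22 of them to lower values. No paired analysis was possible because there was 1 library of each kind. Counts of 12 to 37 tags set the precision of each height.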
